A study of Mus musculus with 6 samples.

Results

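The genes described here are 10 targets of the transcription factor p53, namely Cdkn1a, Mdm2, Ccng1, Trp53inp1, Plk2, Sesn1, Phlda3, Bbc3, Pmaip1 and Bax, in MLO-Y4 cells with and without low-intensity pulsed ultrasound (LIPUS). They were taken by symbol from a table of 53797 mouse genes, and all 10 were found there. MLO-Y4 is a murine cell line used as a model of osteocytes, the cells embedded in bone. RNA was sequenced from 3 samples treated with LIPUS for 20 min at 1.5 MHz and 30 mW/cm2 and from 3 untreated Control samples, and the methods place the extraction 30 min after the stimulation. Treated and Control wells shared a culture plate, with the ultrasound transducers unplugged under the Control wells. The study describes a Control replicate that stood apart from the others. As a possible reason, the authors name ultrasound that leaked to the Control wells. The pooled Control values include this replicate, and its part in the ratios was not tested. The question was how the RNA of osteocyte-like cells responds to LIPUS. Each gene has a single FPKM (fragment count scaled to the length of the exons and to the number of mapped fragments) for each group, pooled by the authors over the samples of the group. No value of a single sample was analysed here. No SD, interval or p-value therefore accompanies any ratio, and no difference between the groups was set against the spread between replicates. The authors' own group comparison, which holds p-values, was not used.

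p53, encoded by Trp53, is a transcription factor that is stabilised by DNA damage and other stress. It switches on genes that stop the cell cycle, repair DNA, restrain growth signalling or start cell death, and it also switches on Mdm2, the ubiquitin ligase that degrades it, which closes a feedback loop. Several of these genes also answer to other inputs, such as growth factor and stress kinase pathways. As background on the model, the MLO-Y4 line was derived from a mouse that carries the SV40 large T antigen under the osteocalcin promoter, and this viral protein binds p53, so that the line is not a plain model of p53 activity. Of 7 osteocyte markers, Dmp1, Pdpn and Gja1 reached the level at which Cuffdiff tests a gene, whereas Sost, Mepe and Fgf23 were listed at 0 FPKM in both groups. Dmp1 was at 3.04 FPKM in the Control group and 7.65 FPKM in the LIPUS group, Pdpn at 295 and 402 FPKM and Gja1 at 176 and 170 FPKM, and Phex was at 0 and 0.190 FPKM. Summed over the 7 markers, the level was 475 FPKM in the Control group and 579 FPKM in the LIPUS group, and over 5 osteoblast markers it was 1215 and 941 FPKM. Of these, Col1a1 was at 891 and 731 FPKM, Alpl at 293 and 190 FPKM and Runx2 at 24.4 and 14.8 FPKM. Dmp1 was thus at least 1.5-fold higher with LIPUS, and both Alpl and Runx2 at least 1.5-fold lower, beside 4.64% and 4.67% of all genes for which the test was made. Dmp1 reached the level of the test through the LIPUS group alone, and of the tested genes with a mean below 10 FPKM, as it has, 10.5% were at least 1.5-fold higher. Sp7 was at 5.86 and 3.75 FPKM and Bglap at 0 and 1.58 FPKM. Of 7 haematopoietic markers, 5 were at 0 FPKM in both groups, and of 4 endothelial markers, 3 were. The summed level of the haematopoietic markers was 8.42 FPKM in the Control group and 10.9 FPKM in the LIPUS group, nearly all of it from Cd14, and that of the endothelial markers was 0.496 and 0 FPKM. The part of these differences in the ratios below was not tested.

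Among the p53 targets, Plk2 alone of the well expressed genes was at least 1.5-fold higher with LIPUS, and none of them was as much lower. Well expressed here means the status OK, which Cuffdiff, the program of the group comparison, gives to the genes that it tests. It was given to Cdkn1a, Bax, Mdm2, Ccng1, Phlda3 and Plk2, 6 of the 10 genes, and to 8145 genes in all. The other targets, Bbc3, Sesn1, Trp53inp1 and Pmaip1, had the status NOTEST and lay below 6 FPKM in both groups. Over all genes with status OK, 4.64% were at least 1.5-fold higher with LIPUS and 4.67% at least 1.5-fold lower, so a single gene out of 6 is what stands beside those shares. The ratio of a gene is given as log2((LIPUS + 0.1)/(Control + 0.1)) on the FPKM scale, which is positive where the LIPUS group was higher and equals 0.58 at a ratio of 1.5. The median log2 ratio of the 6 targets was 0.09, against 0.00 over all genes with status OK. In such bulk samples, fewer cells that express a gene and less RNA per cell cannot be told apart.

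The targets differed far more in level than between the groups. In the Control group, the order was Cdkn1a at 171 FPKM, Bax at 113 FPKM, Mdm2 at 80.4 FPKM, Ccng1 at 58.6 FPKM, Phlda3 at 54.0 FPKM and Plk2 at 22.8 FPKM. A gap separated these from Bbc3 at 5.65 FPKM, Sesn1 at 3.31 FPKM, Trp53inp1 at 2.1 FPKM and Pmaip1 at 1.35 FPKM. In the LIPUS group the upper genes were Cdkn1a at 188 FPKM, Bax at 117 FPKM, Mdm2 at 108 FPKM, Phlda3 at 52.3 FPKM, Ccng1 at 47.4 FPKM and Plk2 at 42.2 FPKM. The lower genes were Sesn1 at 3.56 FPKM, Pmaip1 at 3.49 FPKM, Bbc3 at 3.33 FPKM and Trp53inp1 at 0.747 FPKM. The upper 3 genes kept their order, while Ccng1 and Phlda3 exchanged places and Pmaip1 moved from last to eighth. Without values of single samples, it cannot be said which neighbours in this order differ beyond their spread. The arrest gene Cdkn1a was exceeded by 511 genes of the table in the Control group and by 480 in the LIPUS group. Summed over all 10 targets, the level was 513 FPKM in the Control group and 566 FPKM in the LIPUS group.

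**Figure D1:**
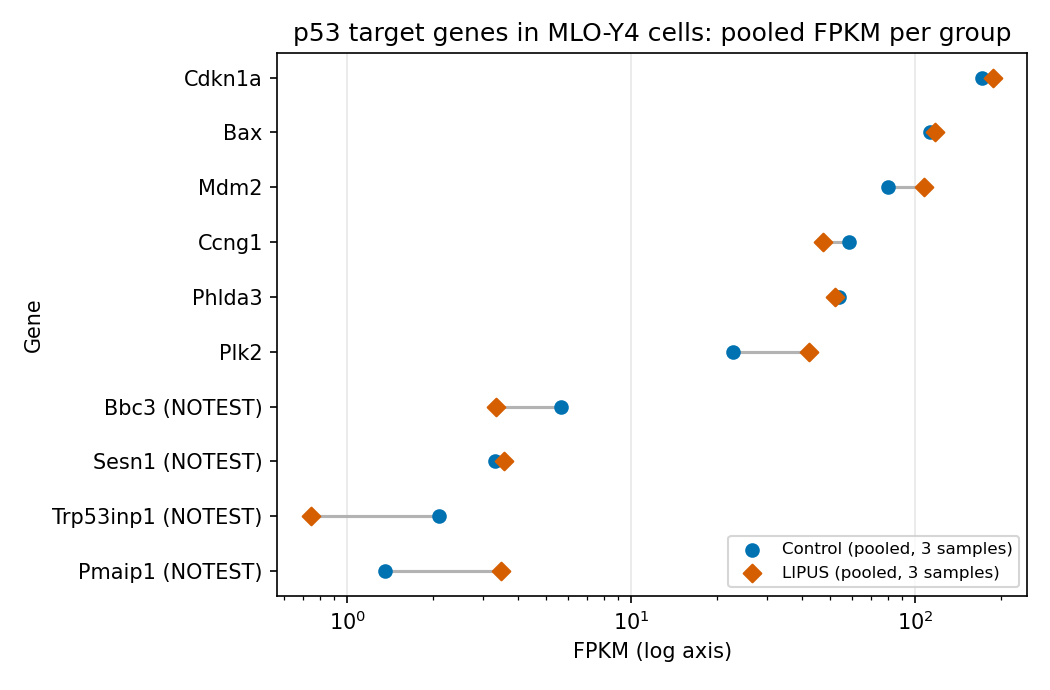
Pooled FPKM (log axis) of each p53 target gene in the Control group (circles) and the LIPUS group (diamonds), joined by a line, with genes of status NOTEST marked. The 6 genes with status OK lie between 22.8 and 188 FPKM and the 4 others between 0.747 and 5.65 FPKM, and the long lines belong to Plk2, Bbc3, Trp53inp1 and Pmaip1.

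The start regions of the targets show how differently the genes are built. RefSeq promoter windows of GRCm38.p6, from 250 bases before to 50 bases after an annotated start, were found for 8 of the 10 genes and gave 12 windows, since some genes have several starts. Trp53inp1 and Pmaip1 had no window. The windows were searched on both strands for the p53 decamer, the short pattern of which a pair forms a p53 response element, and for motifs of factors that act early after stimulation. The 5 windows below belong to the cell cycle genes Cdkn1a, Ccng1 and Plk2, to Mdm2 and to Bax, and are shown as the windows of targets with status OK that hold a match. Capitals mark the decamers, with those that complete a pair at 1 mismatch, and, in Plk2, the cyclic AMP response element (CRE, TGACGTCA).
Cdkn1a, chr17:29090729-29091028, plus strand: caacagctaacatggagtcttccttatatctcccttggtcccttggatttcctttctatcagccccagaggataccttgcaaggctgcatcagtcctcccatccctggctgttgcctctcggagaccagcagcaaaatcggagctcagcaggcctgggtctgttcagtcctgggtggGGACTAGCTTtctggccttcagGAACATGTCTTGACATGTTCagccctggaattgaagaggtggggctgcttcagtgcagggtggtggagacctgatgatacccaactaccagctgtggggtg
Ccng1, chr11:40755237-40755536, minus strand: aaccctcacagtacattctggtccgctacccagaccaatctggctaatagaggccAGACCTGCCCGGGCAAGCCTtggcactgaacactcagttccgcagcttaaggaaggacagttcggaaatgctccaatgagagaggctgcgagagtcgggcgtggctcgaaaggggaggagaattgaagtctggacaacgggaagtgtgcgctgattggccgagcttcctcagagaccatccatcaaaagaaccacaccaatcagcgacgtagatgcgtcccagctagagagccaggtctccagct
Mdm2, chr10:117710709-117711008, minus strand: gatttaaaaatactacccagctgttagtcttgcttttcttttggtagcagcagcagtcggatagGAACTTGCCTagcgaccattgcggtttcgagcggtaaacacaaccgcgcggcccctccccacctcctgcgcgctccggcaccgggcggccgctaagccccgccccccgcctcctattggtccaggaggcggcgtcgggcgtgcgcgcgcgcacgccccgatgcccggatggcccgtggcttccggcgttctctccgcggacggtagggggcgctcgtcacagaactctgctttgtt
Bax, chr7:45466849-45467148, minus strand: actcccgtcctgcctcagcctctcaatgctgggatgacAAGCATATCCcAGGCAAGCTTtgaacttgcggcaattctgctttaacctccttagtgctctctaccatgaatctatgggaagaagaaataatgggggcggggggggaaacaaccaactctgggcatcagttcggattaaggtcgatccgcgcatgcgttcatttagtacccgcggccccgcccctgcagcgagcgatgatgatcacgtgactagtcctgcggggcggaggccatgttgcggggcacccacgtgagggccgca
Plk2, chr13:110394794-110395093, plus strand: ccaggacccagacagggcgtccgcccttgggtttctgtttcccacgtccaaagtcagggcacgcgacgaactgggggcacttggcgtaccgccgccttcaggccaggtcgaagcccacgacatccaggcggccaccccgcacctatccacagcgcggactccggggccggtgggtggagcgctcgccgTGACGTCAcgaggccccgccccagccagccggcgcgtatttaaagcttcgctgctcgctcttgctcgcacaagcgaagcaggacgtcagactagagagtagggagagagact

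The Cdkn1a window shown belongs to the first of 2 annotated starts, 2790 bases upstream of the second. It held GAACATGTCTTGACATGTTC, a pair of decamers without a spacer and with 1 mismatch to the consensus, from 51 to 32 bases before that start. A further decamer lay from 73 to 64 bases before it and formed, with the first decamer of that pair and a spacer of 12 bases, a pair without a mismatch, the only such pair in the 12 windows. The window of the second start held no match to any motif searched. Ccng1 held a pair without a spacer and with 1 mismatch, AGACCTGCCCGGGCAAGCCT, from 195 to 176 bases before its start, and Bax held a pair with a spacer of 1 base and 1 mismatch. Mdm2 and the second start of Sesn1 held a single decamer. A decamer without a mismatch was found in 5 of the 12 windows, against 8.36% of all 32851 windows of this length. Pairs with a spacer of at most 13 bases and at most 1 mismatch occurred in 3 of the 12 windows and in 1.09% of all, and this allowance for mismatches and spacers was set after the sequences were seen. The genes were chosen as known p53 targets, and these shares are no result of LIPUS. Whether the matches are the sites that p53 uses in these genes was not tested.

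Plk2 held no decamer in its window, but a CRE from 62 to 55 bases before its start. A CRE was found in 1.79% of all windows and in no other window of these targets. The EGR motif, GCGNGGGCG, was found in 2 windows of Bbc3 and 1 of Sesn1, against 5.55% of all windows. The CArG box of serum response factor (1.63% of all windows), the AP-1 motif TGANTCA (7.81%) and the letters TATAAA (13.6%) were found in none of the 12 windows. A match is no evidence of binding, and the absence of a match says only that these letters are not in this window.

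**Figure D2:**
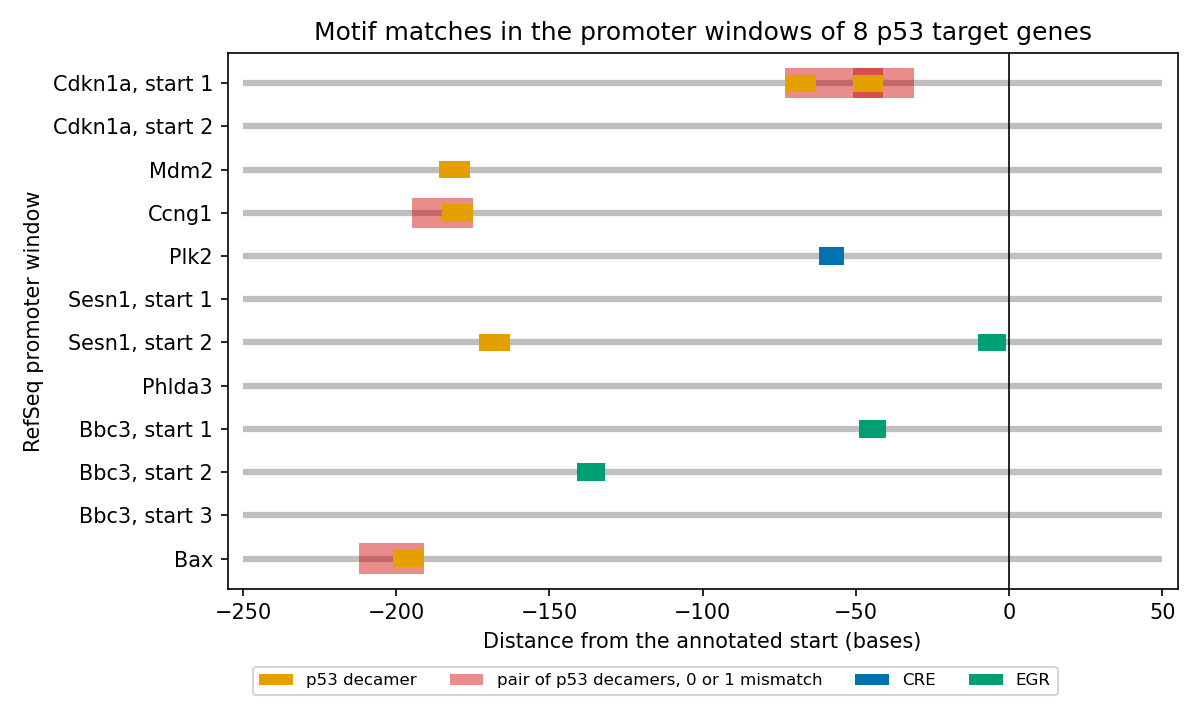
Matches to the p53 decamer, pairs of decamers with 0 or 1 mismatch, CRE and EGR motif in the 12 RefSeq promoter windows (grey bars) of 8 p53 target genes, by distance in bases from the annotated start (vertical line). Decamers lie in windows of Cdkn1a, Mdm2, Ccng1, Sesn1 and Bax, and the CRE of Plk2 ends 55 bases before its start.

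Of the targets that act on the cell cycle, Plk2 stood apart from Cdkn1a and Ccng1. Plk2, a polo-like kinase of centriole duplication that is also known as an early response gene (ENSMUSG00000021701), lies on chromosome 13 of GRCm38 from 110395046 to 110400844, on the plus strand. All 10 targets are protein-coding genes. Plk2 had 22.8 FPKM in the Control group and 42.2 FPKM in the LIPUS group, 1.85 times as much (log2 ratio 0.89). This was rank 132 of the ratios of all 8145 genes with status OK, counted from the highest. Among genes with a mean of 30 to 100 FPKM, as Plk2 has, 2.15% were at least 1.5-fold higher, and the log2 ratios, with the lowest and the highest 2.5% of these genes left out, reached from -0.58 to 0.55. Plk2 is in this range through the LIPUS group alone, since its Control level lies below 30 FPKM. Among genes with a mean of 10 to 30 FPKM, 4.30% were at least 1.5-fold higher. Their log2 ratios, cut in the same way, reached from -0.71 to 0.72. The CRE shown above lies in the promoter window of Plk2, and whether it bears on the ratio was not tested.

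Cdkn1a (ENSMUSG00000023067) encodes p21, the inhibitor of cyclin-dependent kinases through which p53 halts the cell cycle. It lies on chromosome 17 from 29090976 to 29100727, on the plus strand. Its pooled levels of 171 FPKM (Control) and 188 FPKM (LIPUS) differed by 10.0%, a log2 ratio of 0.14, and 30.4% of the genes with status OK had a higher ratio. Its exons share 273 bases with those of AC167363.2 on the other strand, which has no row in the table. Ccng1 (ENSMUSG00000020326), cyclin G1, which recruits a phosphatase to Mdm2, was the lowest of the 6 in ratio. It had 58.6 FPKM in the Control group and 47.4 FPKM in the LIPUS group, a log2 ratio of -0.30, and lies on chromosome 11 from 40748552 to 40755311. A lower ratio was found for 14.3% of the genes with status OK. Cdkn1a and Ccng1 thus had ratios of opposite sign, and both lay within 1.5-fold.

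Mdm2 (ENSMUSG00000020184), the feedback ligase of p53, had the next highest ratio after Plk2. It lies on chromosome 10 from 117688875 to 117710758, on the minus strand, and had 80.4 FPKM in the Control group and 108 FPKM in the LIPUS group, a ratio of 1.34 (log2 ratio 0.42). A higher ratio was found for 8.97% of the genes with status OK. Mdm4, its paralog, which holds p53 inactive without degrading it, had 7.95 and 5.94 FPKM, a log2 ratio of -0.41. Mdm2 was therefore 10.1 times as abundant per length as Mdm4 in the Control group and 18.1 times in the LIPUS group. Trp53 itself had 73.1 FPKM in the Control group and 61.5 FPKM in the LIPUS group, a log2 ratio of -0.25. Mdm2, Mdm4 and Trp53 each lay within 1.5-fold between the groups. Since no gene with status OK had less than 6.70 FPKM in its higher group, Mdm4 has this status through the Control group alone.

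Phlda3 and Sesn1 restrain growth signalling downstream of p53, Phlda3 by competing with Akt for membrane lipids and Sesn1, a sestrin, by holding back mTORC1. Phlda3 (ENSMUSG00000041801), on chromosome 1 from 135766119 to 135769136, had 54.0 FPKM (Control) and 52.3 FPKM (LIPUS), a log2 ratio of -0.05. Sesn1 (ENSMUSG00000038332), on chromosome 10 from 41809935 to 41908424, had 3.31 FPKM (Control) and 3.56 FPKM (LIPUS), a log2 ratio of 0.10. The pooled values of both genes thus lay within 10% of each other between the groups.

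The cell death genes fell into an abundant member that was nearly level and rare members that differed in opposite directions. Bax (ENSMUSG00000003873), the effector that permeabilises the outer mitochondrial membrane, lies on chromosome 7 from 45461697 to 45466898, on the minus strand. It had 113 FPKM in the Control group and 117 FPKM in the LIPUS group, a log2 ratio of 0.05. Its exons share 192 bases with those of Gm45808 on the same strand, which was at 1.70 and 0.894 FPKM. Bbc3 (ENSMUSG00000002083), which encodes the BH3-only protein Puma and lies on the same chromosome from 16308393 to 16318205, had 5.65 FPKM in the Control group and 3.33 FPKM in the LIPUS group, a log2 ratio of -0.75. Pmaip1 (ENSMUSG00000024521) encodes Noxa, another BH3-only protein, which neutralises Mcl1. It had 1.35 FPKM in the Control group and 3.49 FPKM in the LIPUS group, 2.58 times as much (log2 ratio 1.30). Pmaip1 was at 0.240 times the level of Bbc3 in the Control group and at 1.05 times its level in the LIPUS group. Trp53inp1 (ENSMUSG00000028211), a nuclear protein that assists p53 in cell death and acts in autophagy, lies on chromosome 4 from 11156431 to 11174379. It had 2.1 FPKM in the Control group and 0.747 FPKM in the LIPUS group, a log2 ratio of -1.38.

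Bbc3, Pmaip1 and Trp53inp1 thus lay past 1.5-fold, at levels where ratios scatter more widely than among genes with status OK. Among the 3854 genes of status NOTEST with at least 1 FPKM in a group, 18.1% were at least 1.5-fold higher with LIPUS and 19.0% at least 1.5-fold lower, about 4 times the shares among genes with status OK. A higher ratio than that of Pmaip1 was found for 7.21% of them, a lower ratio than that of Trp53inp1 for 7.16%, and a lower ratio than that of Bbc3 for 15%. Among the 2877 genes of status NOTEST with a mean of 1 to 5 FPKM, as these genes have, 16.2% were at least 1.5-fold higher and 18.2% at least 1.5-fold lower, and the same shares were 4.14% for Pmaip1, 5.04% for Trp53inp1 and 13.7% for Bbc3. The log2 ratios of the genes at this level, without the lowest and the highest 2.5%, reached from -1.86 to 1.69, a range that holds the ratios of all 4 rare targets. Trp53inp1 reached 1 FPKM in the Control group alone, and its place among the lower ratios rests partly on that. Of the 4 rare targets, 1 was at least 1.5-fold higher, 2 were at least 1.5-fold lower and Sesn1 was neither. The depth behind these values cannot be read from the table, and whether the differences exceed counting error was not tested.

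**Figure D3:**
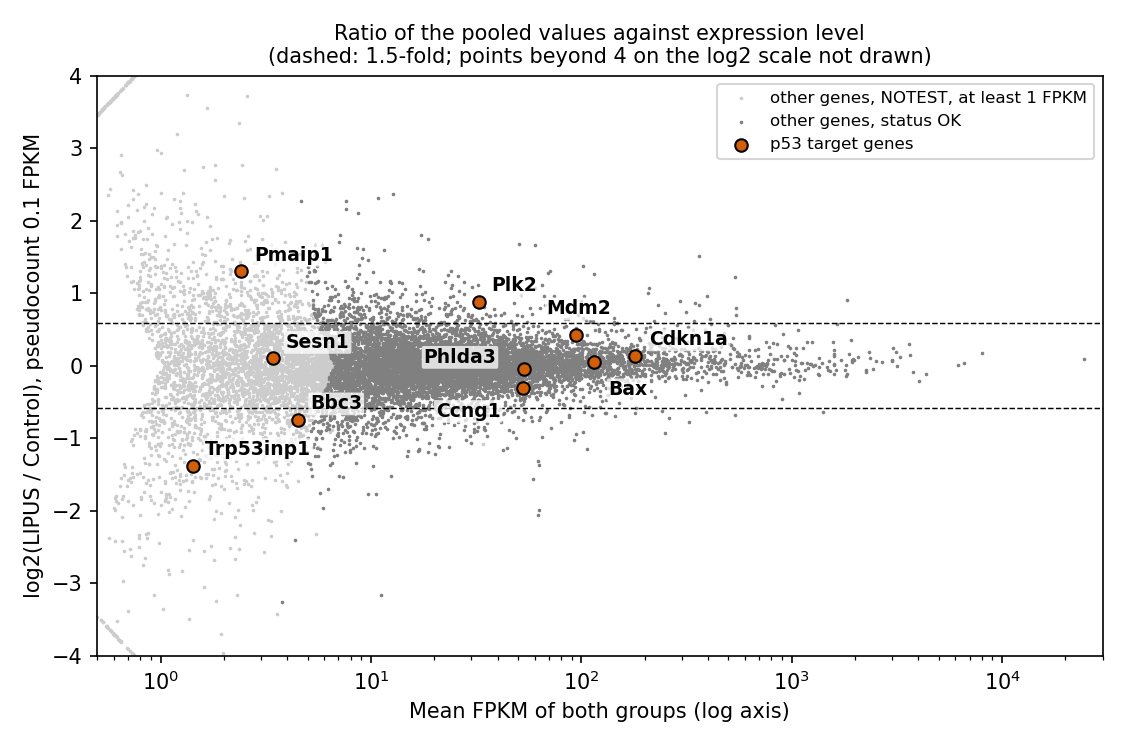
log2 ratio of LIPUS over Control for each gene with at least 1 FPKM in a group, against its mean FPKM (log axis), with the p53 target genes named and 1.5-fold drawn as dashed lines. Plk2 (0.89) lies outside the dashed lines among well expressed genes, while Pmaip1 (1.30), Bbc3 (-0.75) and Trp53inp1 (-1.38) lie at low levels, where the ratios spread more widely than among genes with status OK.

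The paralogs of the targets were set beside them. Of 14 paralogs, 10 had the status OK, of which 1 was at least 1.5-fold higher and none lower, beside 4.64% and 4.67% of all genes with status OK. This was Phlda1, a relative of Phlda3 that is known to respond to growth factors, with 320 FPKM in the Control group and 499 FPKM in the LIPUS group (log2 ratio 0.64). Phlda1 was 5.92 times as abundant per length as Phlda3 in the Control group and 9.53 times in the LIPUS group. Among the polo-like kinases, Plk3, itself a reported p53 target, had 34.2 and 45.6 FPKM (log2 ratio 0.41), whereas the mitotic kinase Plk1 had 43.7 and 39.5 FPKM (-0.15) and Plk4, which starts centriole duplication, had 29.5 and 29.3 FPKM (-0.01). Plk2 was at 0.522 times the level of Plk1 in the Control group and at 1.07 times its level in the LIPUS group. Cdkn1b, which encodes the related inhibitor p27, had 8.07 and 7.86 FPKM (-0.04), so that Cdkn1a was 21.2 and 24.0 times as abundant. Trp53inp2 had 15.4 and 16.2 FPKM (0.07), 7.32 times the level of Trp53inp1 in the Control group and 21.6 times in the LIPUS group. Sesn2 had 8.84 and 7.93 FPKM (-0.15). Bak1 and Bok, effectors related to Bax, had 61.2 and 52.1 FPKM (-0.23) and 20.5 and 26.8 FPKM (0.38).

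Other genes of the pathway were taken from lists of reported functions. Of 32 other p53 targets, 16 had the status OK. Of these 1 was at least 1.5-fold higher (4.64% of all genes with status OK) and none as much lower (4.67%), with a median log2 ratio of -0.12. The higher gene was Btg2, an antiproliferative cofactor of mRNA decay that is also an early response gene, with 32.5 FPKM in the Control group and 53.7 FPKM in the LIPUS group (log2 ratio 0.72). The counts by role were 1 of 5 for arrest, 0 of 5 for cell death and 0 of 6 for repair and metabolism. In the circuit around p53, 1 of 15 genes with status OK was at least 1.5-fold lower and none higher, with a median log2 ratio of -0.15, and 12 of the 15 had a ratio below 0, as had 49.2% of all genes with status OK. The share at least 1.5-fold lower over all genes with status OK was 4.67%. The 3 genes above 0 were Chek2, a checkpoint kinase, at 0.56, Trp53bp2 at 0.39 and Ppm1d, a phosphatase that p53 itself induces, at 0.29, named after their values were seen. The gene past 1.5-fold was Atm, the kinase that activates p53 after double-strand breaks, with 7.33 FPKM in the Control group and 3.33 FPKM in the LIPUS group (log2 ratio -1.12). Among genes with status OK and a mean below 10 FPKM, as Atm has, 11.3% were at least 1.5-fold lower. No gene with status OK had less than 6.70 FPKM in its higher group. Atm therefore has this status through the Control group alone, and its place in the counts of lower genes rests partly on that. The same holds for Mdm4, at 7.95 and 5.94 FPKM, in the count below 0. Chek2, at 5.09 FPKM in the Control group and 7.54 FPKM in the LIPUS group, has the status through the LIPUS group alone. Its place above 0 rests partly on that.

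Downstream of p21, the 16 G2/M genes that p53 lowers through this inhibitor all had the status OK, and all lay within 1.5-fold. Their log2 ratios ran from -0.38 to 0.35 with a median of 0.03, with 8 above 0 and 8 below. The sign of this median changed when the FPKM of each group were scaled to the same sum. The lowest ratio was that of Cdc25c, at 7.80 FPKM in the Control group and 5.97 FPKM in the LIPUS group. Cdc25c has the status OK through the Control group alone. With a minimum of 10 FPKM in a group, the median of the list was 0.08. Of 13 cyclins, cyclin-dependent kinases and partners with status OK, 1 was at least 1.5-fold lower and none higher, beside 4.67% and 4.64% of all genes with status OK. This was Cdkn2b, which encodes the inhibitor p15, with 9.33 FPKM in the Control group and 6.0 FPKM in the LIPUS group (log2 ratio -0.63). Like Atm, it has the status OK through the Control group alone and a mean below 10 FPKM, where 11.3% of genes were as much lower. Of the other genes of the BCL-2 family, to which Bax, Bbc3 and Pmaip1 belong, 7 of 13 had the status OK and none reached 1.5-fold, with a median log2 ratio of -0.23. All these medians stand beside 0.00 over all genes with status OK.

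**Figure D4:**
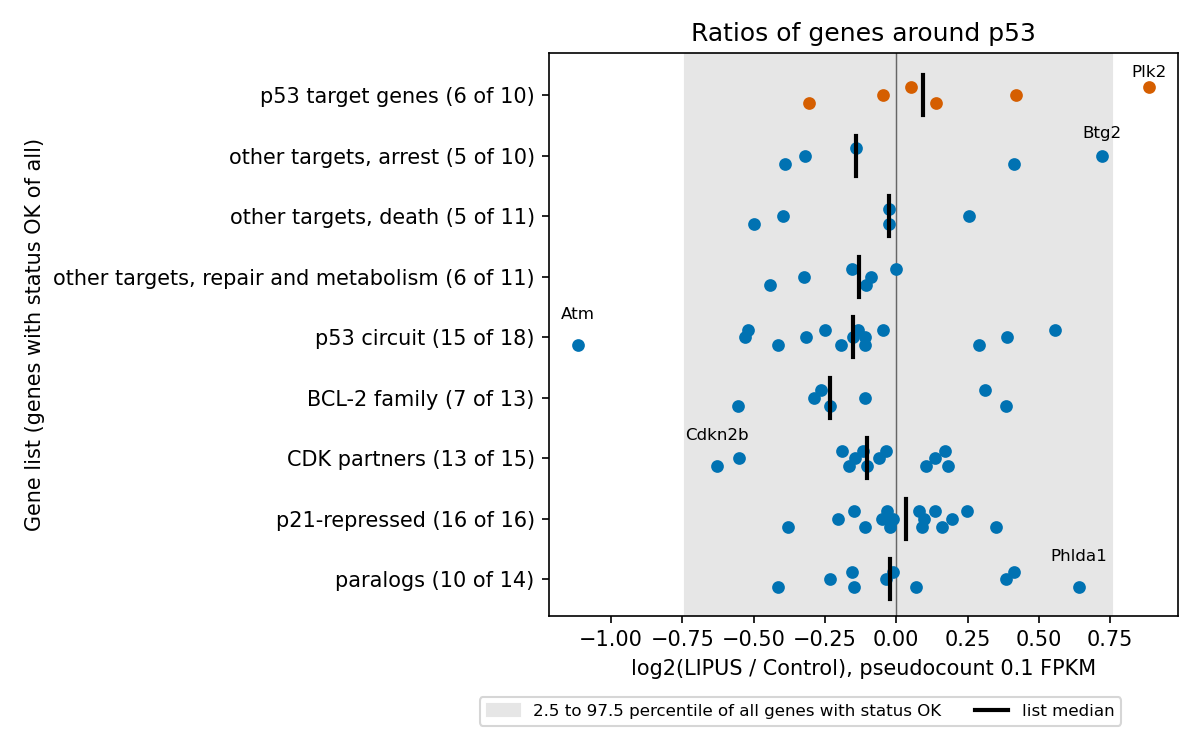
log2 ratio of LIPUS over Control for the genes with status OK of each list around p53, without the marker lists (points), with the list median (black bar) and the range of all genes with status OK without the lowest and the highest 2.5% (grey band, -0.74 to 0.76). Genes past 1.5-fold are named, and Plk2 and Atm are the ones outside the band.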

How the data were processed

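RNA of 3 LIPUS and 3 Control samples of MLO-Y4 cells was sequenced from stranded mRNA libraries. According to the submitters' processing notes, reads were trimmed with Trimmomatic 0.36 and aligned to GRCm38 with TopHat2 2.1.0 and Bowtie2 2.2.6.0, and Cufflinks 2.1.1 and Cuffdiff were used; the methods name another Cufflinks version, and Ensembl transcripts. The authors deposited 1 FPKM per gene and group, pooled over the samples of the group. The authors' own group comparison (fold change, statistic, p-value, q-value and call) is in the same table and was not used. The depth of each sample is not in the table.

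The status was taken as given, and is OK where Cuffdiff tested the gene. Ratios were computed as log2 with a pseudocount of 0.1 FPKM, and 1.5-fold marks a difference without a test. The alternatives were no pseudocount or 1 FPKM, log2 thresholds of 0.32 and 1 for 1.5-fold, minimum levels of 1 and 10 FPKM, genes above 0 in both groups, and centring on the median. Scaling to the same sum, and the NOTEST genes as a background, were chosen after seeing the data. The genes and lists were chosen with earlier results of these data known. All 10 genes are named with their values; of the gene lists around p53, genes with status OK past 1.5-fold, Trp53 and the paralogs with status OK are named. Genes above 0 in the p53 circuit, Cdc25c, and the marker genes with values, are named besides. Gene positions are from GENCODE M21 (GRCm38), matched by Ensembl identifier. Steps were tested on simulated data. Python 3.11.15 with numpy 2.4.6, pandas 2.3.3 and matplotlib 3.10.9 was used.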

Additional observations from a re-analysis of the deposited data

How the results depend on the processing

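No paired analysis was possible because the table holds pooled values for each group, which also prevented leaving out single samples. With a threshold of 0.32 on the log2 scale in place of 0.58, 2 of the 6 p53 targets with status OK were higher (Plk2 and Mdm2), beside 13.5% of all genes with status OK higher and 13.3% lower. With a fold of 2, 0 were higher, beside 1.03% and 0.909%. Over all 10 targets, whatever their status, 2 were at least 1.5-fold higher and 2 lower. For all genes with at least 1 FPKM in a group, 8.98% were higher and 9.26% lower, and for genes of status NOTEST at that level 18.1% and 19.0%. Scaling each group to the same sum is a shift of -0.05 on the log2 scale before the pseudocount and changed no count of the targets. With the pseudocount, Trp53inp1 moved to -1.46 and Pmaip1 to 1.28. The median of the targets stayed between 0.05 and 0.09 under all 6 alternatives. The sign of no target changed in any of its alternatives. A pseudocount of 1 FPKM brought the log2 ratio of Trp53inp1 to -0.83, of Bbc3 to -0.62 and of Pmaip1 to 0.93, and without a pseudocount Trp53inp1 had -1.49. The pooled values limit every ratio, since neither depth nor replicate spread can be read from them.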
